A study of Homo sapiens with 6 samples.

Results

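TGM2 encodes tissue transglutaminase, and its transcript was followed here with every probe set that the platform annotation gives to TGM2 alone, 1 gene of 19775 so measured. There were 4 such probe sets (201042_at, 211003_x_at, 211573_x_at and 216183_at) among 41091 that name a single gene, and all 4 reached the filter on low values described below. The cells were NB4, an established human line of acute promyelocytic leukaemia that carries the PML-RARA fusion, grown in serum-containing medium. All-trans retinoic acid (ATRA), which drives these cells to mature toward neutrophils through its receptors, was added at 1e-06 M. The groups were untreated cells (0 h) and cells harvested after 4, 12, 24, 48 and 72 h in ATRA, with 1 Affymetrix array each, 6 arrays in all, and no replicates. No vehicle-treated cells were analysed here, so time in ATRA and time in culture cannot be told apart. The model is a single cell line, and the labels do not say whether the 6 samples came from 1 culture.

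Transglutaminases use calcium to join the side chain of glutamine in one protein to lysine in another, or to a small amine such as a polyamine. TGM2 also binds GTP, couples to receptors as a G protein, and acts at the cell surface as a partner of fibronectin and integrins. It is a long-known retinoic acid-induced gene, is abundant in macrophages, and in maturing NB4 cells has been linked to adhesion, the respiratory burst and chemokine production.

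Values are log2 probe set summaries, and a difference of 1 is a 2-fold change in signal. The levels of different probe sets cannot be set against each other, because each has its own probes. Of all probe sets of 1 gene, 25189 had a highest value of at least 3.66, the median of all values, and were tested. Array medians lay between 3.64 and 3.69. The spiked bioC control averaged 8.01 and 8.11 on the 0 and 12 h arrays and 6.88 to 7.17 on the other arrays. The 3' minus 5' difference was 0.02 to 0.21 for GAPDH and 0.13 to 0.26 for ACTB over the 6 arrays. The 18S ribosomal RNA control read 9.98 at 12 h and 5.80 to 6.80 at the other times. The part of these array differences in the results was not tested. In these bulk samples, more cells with the transcript and more transcript per cell cannot be told apart.

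TGM2 signal rose in 3 of its 4 probe sets, by amounts among the largest on the arrays. Of these, 201042_at and 211573_x_at started near the level of the filter, and 211003_x_at started 0.92 above it. In 201042_at the value was 3.70 in untreated cells, and 5.03, 8.21, 10.40, 12.18 and 12.52 after 4, 12, 24, 48 and 72 h. Each time thus lay above the one before it, and the untreated value was only 0.04 above the filter level. Relative to untreated cells the signal was 2.50-fold at 4 h, 22.8-fold at 12 h and, by the last 2 times, 356-fold and 451-fold. In 211003_x_at the values were 4.58, 5.61, 6.65, 9.13, 10.50 and 11.22 in the same order of times. In 211573_x_at they were 3.75, 4.99, 6.49, 9.03, 10.39 and 11.10. Both of these probe sets also went up at each of the 5 steps, to 100-fold and 163-fold over untreated at 72 h. The suffix x_at marks probe sets with probes that can also match other transcripts.

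The fourth probe set, 216183_at, showed little of this. Its values were 4.49 in untreated cells and 4.11, 4.45, 5.42, 5.71 and 5.03 at the later times. It was thus lowest at 4 h and highest at 48 h, and went up at 3 steps and down at 2. Against untreated cells it was 2.33-fold higher at 48 h and 1.46-fold higher at 72 h. At 72 h, the other 3 probe sets were higher by 8.82, 6.65 and 7.35 on the log2 scale, and 216183_at by 0.55.

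**Figure D1:**
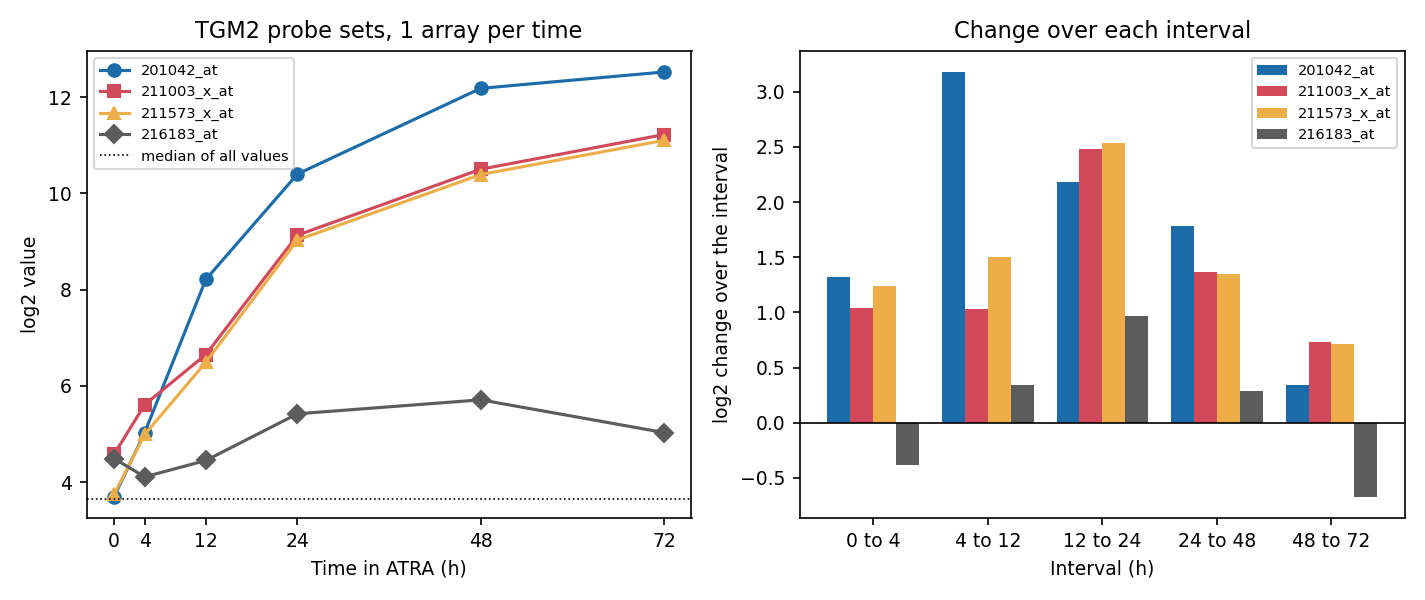
TGM2 signal in the 4 probe sets, as log2 values against hours in ATRA (left, 1 point per array, the dotted line at 3.66 marking the median of all values) and as the log2 change over each interval (right, 1 bar per probe set). The 201042_at line climbs from 3.70 to 12.52 with its tallest bar (3.18) from 4 to 12 h, the x_at lines run together from 12 h with their tallest bars (2.48 and 2.54) from 12 to 24 h, and the 216183_at line stays between 4.11 and 5.71.

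A straight line over the order of the 6 times tests whether a probe set has a slope, and can call a step or plateau as well. The slope was 1.93 ± 0.15 per step for 201042_at (log2, SE, limma adjusted p = 0.000548). It was 1.44 ± 0.09 for 211003_x_at (limma adjusted p = 0.000307) and 1.58 ± 0.09 for 211573_x_at (limma adjusted p = 0.000284). For 216183_at it was 0.24 ± 0.09 and did not pass (limma adjusted p = 0.0959). No TGM2 probe set was called falling. Of all probe sets tested, 7.47% were called rising and 9.68% falling, and TGM2 was examined with its rise already known, so the 3 calls of 4 describe the gene and do not single it out. With each array left out in turn, the slope of 201042_at lay between 1.84 and 2.23 and remained called.

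In 201042_at the rise was early and slowed after 12 h. Of the total 72 h difference of 201042_at, 15.0% was present by 4 h, 51.1% by 12 h, 75.9% by 24 h and 96.1% by 48 h. Its steps were 1.32 from 0 to 4 h, 3.18 from 4 to 12 h, 2.18 from 12 to 24 h, 1.78 from 24 to 48 h and 0.34 from 48 to 72 h. Per hour, these are log2 steps of 0.33, 0.40, 0.18, 0.074 and 0.014. In this probe set the rate was thus highest over the first 12 h, and the last day added 1.27-fold. The x_at probe sets had reached a smaller part of their 72 h difference at 12 h, 31.1% in 211003_x_at and 37.3% in 211573_x_at. They also rose more over the last day, by 0.73 and 0.71. Per hour, their log2 steps were 0.26 and 0.31 from 0 to 4 h, 0.13 and 0.19 from 4 to 12 h, and 0.21 in both from 12 to 24 h. All of these early steps run between arrays of unlike bioC level.

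Differences were also taken between arrays of a like bioC level. Between the 0 and 12 h arrays, 201042_at rose by 4.51, 211003_x_at by 2.07 and 211573_x_at by 2.74, and 216183_at differed by -0.04. Between the 4 and 24 h arrays the differences were 5.37, 3.52, 4.04 and 1.31 in the same order of probe sets. Between the 4 and 72 h arrays they were 7.49, 5.61, 6.11 and 0.93. In each of these comparisons the first 3 probe sets were higher at the later time, by 2.07 or more.

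At 4 h, all 3 rising probe sets were 2-fold or more higher than in untreated cells (2.50-, 2.05- and 2.37-fold), against 1.84% of the probe sets tested. This first step is the least firm of the series. Scaled to equal hybridisation controls without bioC, the 4 h differences were 0.92, 0.63 and 0.84, all under 2-fold. The same 3 probe sets were 2-fold or more higher at 12, 24, 48 and 72 h under every scaling tried. The backgrounds of probe sets 2-fold or more higher at these times were 2.16%, 3.15%, 5.58% and 10.8%.

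Among 13594 genes, for each of which the probe set of highest mean was read, TGM2 (201042_at) ranked 128th by rise at 4 h. It ranked 10th at 12 h, 3rd at 24 h, 2nd at 48 h and 4th at 72 h. At 12 h the larger rises were those of ALOX5AP, CCL2, FGR, ID1, NCF1, BCL2A1, DHRS3, GNG2 and PADI4, of which ID1 and PADI4 started below the filter level. At 24 h only S100A8 (7.47) and ALOX5AP (7.10) exceeded the 6.69 of TGM2, and at 48 h only S100A8 did (8.82 against 8.47). At 72 h S100A8 (9.24), IFI27 and CXCL10 (8.99) were above the 8.82 of TGM2, and the last 2 genes started below the filter level. Ranked against the same genes, with 201042_at kept among them, the 72 h rise of 211003_x_at came 38th, of 211573_x_at 21st, and of 216183_at 2422nd. The place of TGM2 among genes thus rests on which probe set is read.

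A shift of a whole array cancels in the difference between 2 probe sets on it, though an intensity-dependent normalization such as RMA or loess does not. The gap in rise between 201042_at and 211003_x_at was 0.29, 2.44, 2.14, 2.56 and 2.17 from 4 to 72 h. It thus opened between 4 and 12 h and then stayed. The slope of this gap over time order was 0.50 (exact two-sided permutation p = 0.0778 over 720 orders, 0.0917 adjusted over the 6 pairs), which does not pass. Against 211573_x_at the slope of the gap was 0.35 (exact two-sided permutation p = 0.0917, also 0.0917 adjusted). The x_at probe sets differed from each other by a slope of -0.15, with 211573_x_at rising more (exact two-sided permutation p = 0.0222, 0.0333 adjusted). All 3 rising probe sets pulled away from 216183_at, by slopes of 1.69, 1.20 and 1.34. For each of those 3 pairs the exact two-sided permutation p was 0.0028, the smallest that 720 orders can give, and 0.00556 adjusted. These tests were chosen after the values had been seen.

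Disagreement of this size between probe sets of a gene was rare on these arrays. The 72 h differences of the TGM2 probe sets spanned 8.27 log2 units, from 0.55 to 8.82. Over the 2992 genes with at least 3 tested probe sets, the median span was 0.75, 6.62% had a span of 2 or more, and no gene had a larger span than TGM2. A large span needs a probe set that changes much, and TGM2 had the highest top probe set of these genes (8.82). Its rank by span thus follows in part from its rise, which was known when TGM2 was chosen. Among genes with a comparably high top probe set, PADI4, an enzyme that citrullinates histones, had probe sets from 3.12 to 7.30, and GBP1, an interferon-inducible GTPase, from 6.85 to 8.39.

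The rest of the family (TGM1, TGM3 to TGM7, F13A1, the factor XIII carrier F13B, and the enzymatically inactive membrane protein EPB42) was measured by 11 probe sets. By 1 probe set a gene, 5 of these 9 genes reached the filter, 1 was called rising (8.02% of all genes tested) and none falling (9.53%). TGM3, the transglutaminase of hair follicle and epidermis, read 5.00, 4.96, 6.70, 8.29, 7.74 and 7.78 from 0 to 72 h. It was level at 4 h, 3.25-fold higher at 12 h and highest at 24 h, 9.82-fold over untreated. Its slope was 0.68 ± 0.14 per step (limma adjusted p = 0.0184), a call that is lost without the untreated array (limma adjusted p = 0.0813), with the bioC level as a covariate (limma adjusted p = 0.0515) and with hours in place of time order (limma adjusted p = 0.0567).

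TGM5, an epidermal transglutaminase, followed another course. It read 5.89, 7.29, 8.01, 7.29, 7.58 and 6.91, so that it was highest at 12 h (4.34-fold) and 2.03-fold over untreated at 72 h. At 4 h its difference of 1.39 was close to the 1.32 of TGM2. Its trend was not called (slope 0.15 ± 0.13, limma adjusted p = 0.494), and a straight line describes such a passing rise poorly. TGM1, which crosslinks the envelope of keratinocytes, stayed between 4.16 and 4.35 up to 48 h and read 5.46 at 72 h (slope 0.18 ± 0.07, limma adjusted p = 0.126). With hours in place of time order it was called (limma adjusted p = 0.0471). TGM4, the prostate enzyme, read 3.26 to 3.79 and TGM6 3.59 to 4.01, and neither was called. F13A1, the catalytic subunit of coagulation factor XIII, lay between 2.72 and 3.21 on all 6 arrays, below the filter, as did F13B (2.02 to 2.22), TGM7 (2.30 to 2.72) and EPB42 (2.71 to 3.09).

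Of the 5 tested members, 1 (TGM5) was 2-fold or more higher at 4 h, against 1.74% of all genes. TGM3 and TGM5 were so at 12, 24 and 48 h (2.3%, 3.35% and 5.83% of all genes), and TGM1, TGM3 and TGM5 at 72 h (10.9%). None was 2-fold lower at any time, against 1.81%, 1.93%, 1.99%, 4.49% and 12.2% of all genes from 4 to 72 h. The median difference of the 5 at 72 h was 1.02, beside -0.06 over all genes tested. Scaled to controls without bioC, only TGM3 remained 2-fold higher. From 12 h on, every tested member differed from untreated by less than the 3 rising TGM2 probe sets did, except that TGM5 at 12 h (2.12) was above the 2.07 of 211003_x_at. These gaps between genes were not tested.

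**Figure D2:**
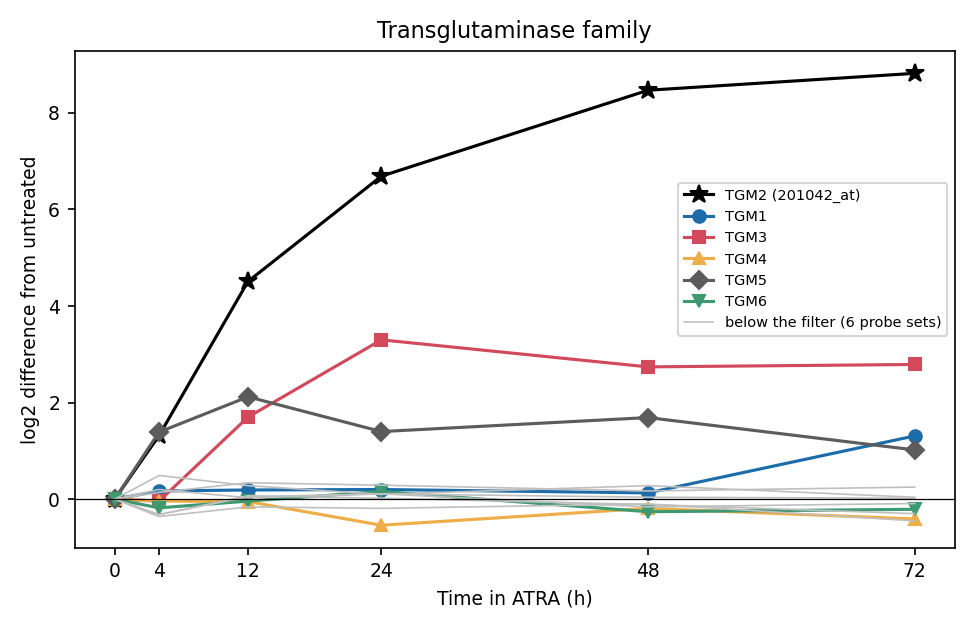
Differences from untreated cells in the transglutaminase family, as log2 units against hours in ATRA, with 1 array per time. TGM2 (201042_at, stars) ends at 8.82, TGM3 peaks at 24 h (3.30), TGM5 peaks at 12 h (2.12), TGM1 leaves the zero line at 72 h (1.31), and probe sets below the filter (grey) stay near zero.

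TGM2 works outside the cell with integrins, fibronectin, syndecans and LDL receptor-related proteins. Of 18 such partners 17 were tested, and 2 were called rising and 3 falling, with a median 72 h difference of 0.01. Over all genes tested, 8.02% were called rising and 9.53% falling, so the rising count is near that share. The integrin subunit ITGB2, shared by the leukocyte integrins, rose by 0.64 ± 0.05 per step (limma adjusted p = 0.000509) and was 9.13-fold higher at 72 h, with 2 of its 3 tested probe sets past 2-fold. Thrombospondin THBS1 read 3.17, 4.33, 3.67, 3.90, 6.04 and 8.39, so most of its rise came at 48 and 72 h. The integrin partners described best for TGM2 were not called. ITGB1 read 8.87 to 9.46, ITGB3 4.33 to 4.49, and fibronectin (FN1) 4.09 to 4.35 over the 6 arrays. The syndecan SDC2 (-1.21 at 72 h) and the LDL receptor-related proteins LRP5 (-1.92) and LRP6 (-1.46, in 1 of 3 probe sets past 2-fold) fell. Without the 72 h array 1 partner was called rising and 0 falling, and without the untreated array likewise 1 and 0.

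As a G protein, TGM2 couples adrenergic and thromboxane receptors to phospholipase PLCD1, and calreticulin (CALR) is its binding partner. None of the 7 tested members of this group was called rising and 1 was called falling, with a median 72 h difference of -0.53. These counts are near those of all genes (8.02% rising, 9.53% falling). The thromboxane receptor TBXA2R fell from 10.16 to 8.49, a 3.20-fold lower signal (slope -0.30 ± 0.05, limma adjusted p = 0.00859). PLCD1 read 5.35 to 5.80 and was not called. CALR was not called either (limma adjusted p = 0.0725). Its 3 tested probe sets differed by -1.94 to -0.80 at 72 h, 2 of them 2-fold or more lower. The adrenergic receptors ADRA1A, ADRA1B and ADRA1D stayed below the filter on all 6 arrays, with highest values of 2.86, 2.83 and 3.10.

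Among intracellular substrates and binding partners, 2 of 18 tested genes rose (8.02% of all genes) and 4 fell (9.53%), with a median of 0.24 at 72 h. The rising count is near the share of all genes. The autophagy receptor SQSTM1 was higher at each time, by 1.78 at 4 h and 2.73 at 72 h, in 3 of 4 probe sets past 2-fold. The hypoxia-inducible factor HIF1A was higher by 1.61 at 72 h. Both calls are lost without the 72 h array. That of SQSTM1 is also lost without any 1 of the untreated, 12, 24 and 48 h arrays and with the bioC covariate (limma adjusted p = 0.166). Vimentin (VIM), an intermediate filament protein, fell step by step from 11.12 to 8.24, a 7.36-fold lower signal (slope -0.64 ± 0.06, limma adjusted p = 0.00142). S100A10 (-1.32), the importin KPNA3 (-1.27) and the heat shock protein HSPB1 (-1.12) also fell. Without the untreated array, or without the 72 h array, 2 genes of the list were called falling. The NF-kappaB inhibitor NFKBIA, a TGM2 substrate, differed by 1.74 at 72 h with no call (limma adjusted p = 0.0861), and RB1 by 0.35.

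Polyamines are amine donors for transglutaminases, and the 10 enzymes and regulators of their turnover were all tested. Of these 1 rose and 3 fell, with a median of 0.07 at 72 h, beside 8.02% and 9.53% of all genes. The rising count is near the share of all genes. The synthetic enzymes ODC1 (-1.82 at 72 h), SRM (-2.39) and AMD1 (-1.10, in 1 of 2 probe sets past 2-fold) fell. SAT1, which acetylates polyamines for breakdown and export, rose by 0.50 ± 0.06 per step (limma adjusted p = 0.0042) and was 6.45-fold higher at 72 h in the probe set with the highest mean. The spermine oxidase SMOX was 2-fold or more higher at all 5 times, most at 12 h (2.52), but had no called trend (limma adjusted p = 0.293). None of the 3 falls was called without the 72 h array, and that of AMD1 was also lost without any 1 of the untreated, 12, 24 and 48 h arrays. SAT1 was called with any array left out.

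Redox enzymes switch TGM2 between active and inactive forms. Of 8 tested, 1 rose (8.02% of all genes) and 2 fell (9.53%), with a median of 0.00 at 72 h. The rising count is near the share of all genes. Glutaredoxin GLRX was higher by 2.18 at 72 h, though not called without the 72 h array (limma adjusted p = 0.0776). The protein disulfide isomerases PDIA6 (-0.78) and P4HB (-0.55) fell. The P4HB difference is smaller than the shift of 0.66 that scaling to the median of all hybridisation controls would give at 72 h. Scaling to the mean of the controls without bioC would give a shift the other way, of -0.56. These 2 shifts differ in the statistic used as well as in bioC. At most 1 of these 2 falls was called with any single array left out, and none without the untreated array. Thioredoxin (TXN), which reactivates TGM2, read 10.12 to 10.65, though its 2 tested probe sets differed by -0.53 and 0.94 at 72 h. PDIA3, which oxidises TGM2, read 10.41 to 11.01.

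TGM2 also takes part in the clearance of dying cells by macrophages, where it acts with MFGE8 and integrin beta-3. Of 8 tested genes for this task, 3 rose (8.02% of all genes) and 1 fell (9.53%), with a median of 0.53 at 72 h. The falling count is near the share of all genes. The receptor kinase MERTK read 3.34, 4.45, 6.07, 6.64, 8.09 and 10.24, rising at every step from an untreated value below the filter level (slope 1.31 ± 0.08, limma adjusted p = 0.000307), and its probe sets were higher by 5.60 and 6.90 at 72 h. Its relatives AXL (3.93 to 4.23) and TYRO3 did not follow, with TYRO3 falling by 0.79 at 72 h. The phosphatidylserine-binding protein ANXA5 was higher by 1.76 and the ligand PROS1 by 1.05. The calls of ANXA5, PROS1 and TYRO3 are each lost with some single array left out, so that without the 4, 48 or 72 h array only MERTK was called rising. The scavenger receptor CD36 stayed at 3.58 or below up to 48 h and read 6.01 at 72 h, with no call. MFGE8 read 4.75 to 5.37.

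Chemokine, cytokine and oxidase genes, products of maturing myeloid cells, mostly rose. Of 11 tested, 10 rose and none fell, beside 8.02% and 9.53% of all genes, and the median difference was 0.50 at 4 h, 1.66 at 24 h and 3.77 at 72 h. CCL24, an eosinophil-attracting chemokine, was 27.7-fold higher at 72 h, interleukin IL1B 25.4-fold, and CYBB, the catalytic subunit of the NADPH oxidase, rose by 0.89 ± 0.09 per step (limma adjusted p = 0.00154). The members differed in timing. CCL2 was already at 9.21 at 4 h from 3.93, ahead of TGM2, while IL1B was at 4.16 to 4.77 through 24 h and then read 7.13 and 8.82. TNF was the exception, at 8.80 in untreated cells and 6.37 to 7.22 afterwards, without a called trend (limma adjusted p = 0.106). Without the 72 h array 6 of the 11 rose, and with the bioC covariate 7.

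Of 14 tested genes of the early retinoid response, 10 rose (8.02% of all genes) and none fell (9.53%), with a median of 1.14 at 4 h and 3.81 at 72 h. At 4 h, 7 of the 14 were 2-fold or more higher (1.74% of all genes). Several of these were ahead of TGM2 at 4 h and behind it later. The retinal reductase DHRS3 differed by 2.89 at 4 h and by 4.67 at 72 h, and the adhesion molecule ICAM1 by 2.93 and 6.04. TGM2, at 1.32 and 8.82, rose later and further. PLAAT4, a retinoid-responsive phospholipase, rose at every step, with differences of 0.94, 2.36, 3.28, 4.51 and 6.00 from 4 to 72 h. The retinoic acid hydroxylase CYP26B1 reached 4.86, in 1 of 2 tested probe sets. The receptor gene RARB stayed between 3.50 and 3.86. Without the 72 h array 6 of the 14 rose, and with the bioC covariate 5.

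**Figure D3:**
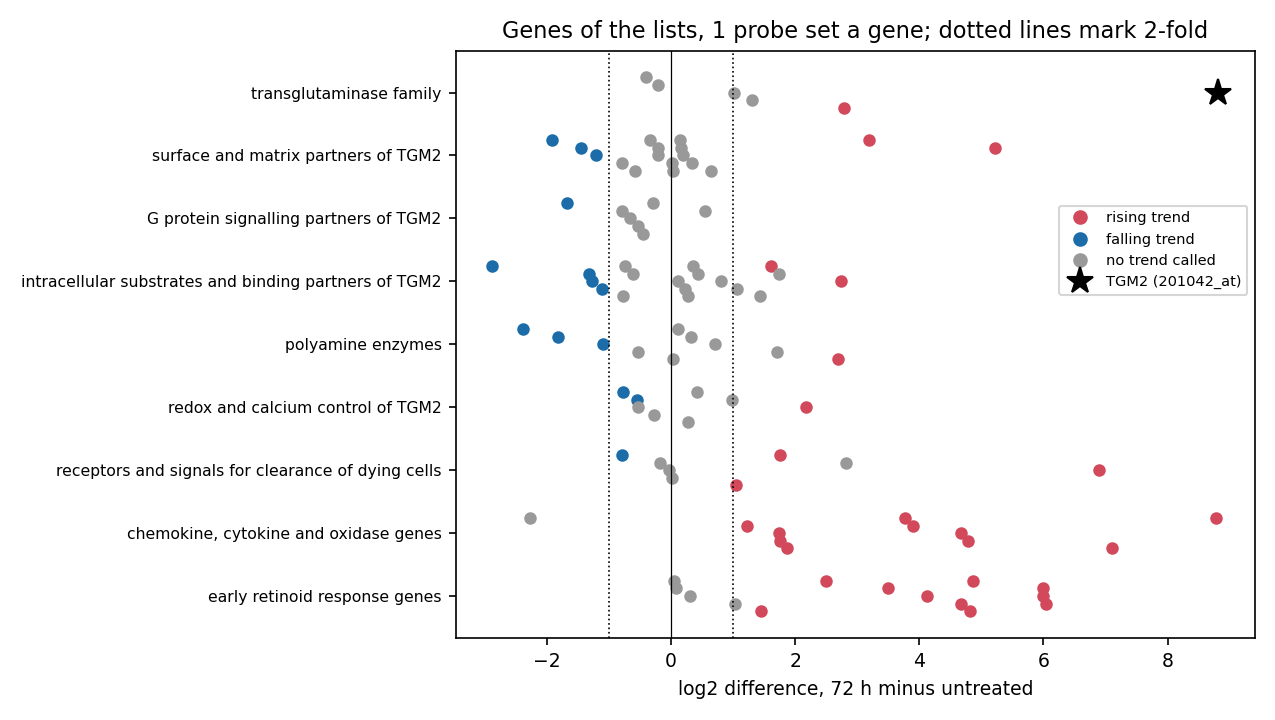
Differences at 72 h against untreated cells (log2) for the tested genes of each list, 1 probe set a gene, coloured by the called trend, with TGM2 as a star. Chemokine, cytokine and oxidase genes and early retinoid response genes lie mostly to the right of the 2-fold line (10 and 11 genes past it), whereas partners and substrates of TGM2 lie on both sides of zero.

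Read by 1 probe set a gene, the gene whose course lay nearest to that of TGM2 was S100A8. Nearness was the root mean square distance between the 5 differences from untreated cells, over 13593 other genes, whose median distance was 6.60. S100A8, a calcium-binding protein of the calprotectin pair, was at 0.49, with differences of 1.64, 4.05, 7.47, 8.82 and 9.24 beside 1.32, 4.51, 6.69, 8.47 and 8.82 for TGM2. Its partner S100A9 followed at 1.02. Then came ALOX5AP, needed for leukotriene synthesis (1.23), the survival gene BCL2A1 (1.29), CYP4F3, which inactivates leukotriene B4 (1.30), PADI4 (1.35), the defensin DEFA4 (1.63) and the oxidase subunit NCF1 (1.66). NCF1 has near-identical pseudogene copies that its probe set may also read. Other probe sets of 2 of these genes rose less: at 72 h the 2 tested for S100A8 were higher by 4.38 and 9.24, and those for PADI4 by 3.12 to 7.30. The ninth gene, the kinase FGR, was at 1.90.

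Several of these genes differed from TGM2 at the start of the course, and all but S100A8 ended below it. At 4 h NCF1 was higher by 3.76, ALOX5AP by 3.04, BCL2A1 by 2.70 and PADI4 by 2.44, against 1.32 for TGM2 and 0.52 for DEFA4. S100A9 (1.79), S100A8 (1.64) and CYP4F3 (1.51) were closer to TGM2 at that time. At 72 h S100A8 was above TGM2, and the other 7 were below it, with differences of 6.40 (DEFA4) to 7.89 (ALOX5AP). MERTK was the 18th nearest gene, at 2.54. A distance gives weight to size as well as shape. By Pearson correlation of the 6 values, which ignores size, the nearest gene was MRPS6, a mitochondrial ribosomal protein, with a 72 h difference of 2.23, and 2 of the 8 nearest genes (S100A8 and CYP4F3) were shared by both measures.

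**Figure D4:**
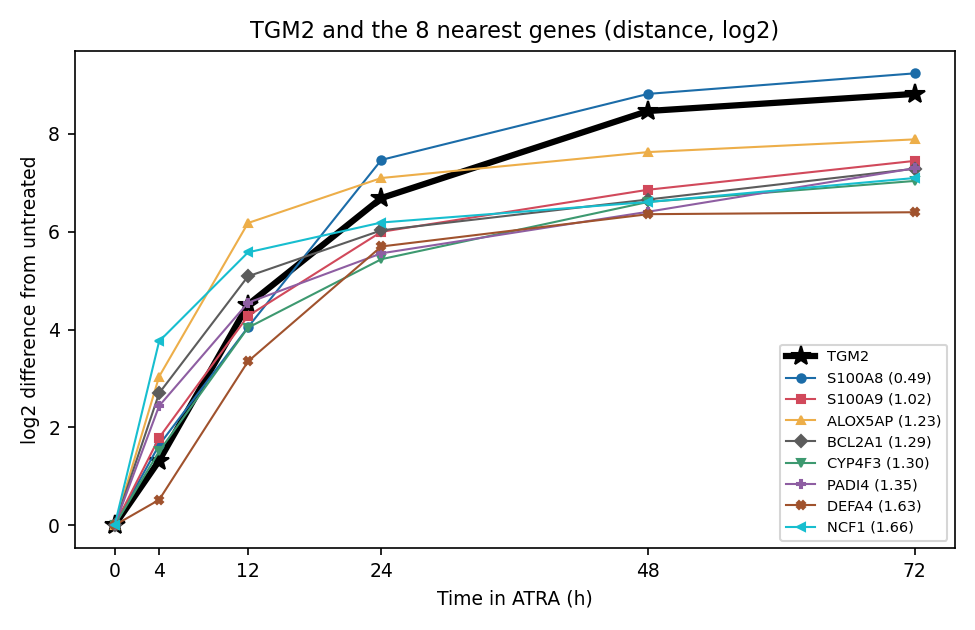
Differences from untreated cells (log2) against hours in ATRA for TGM2 (201042_at, thick black line) and the 8 genes nearest to it, with the distance of each in the legend. S100A8 runs closest to TGM2 (distance 0.49), while NCF1 and ALOX5AP start higher at 4 h (3.76 and 3.04) and all but S100A8 end below TGM2.

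The genes beside TGM2 in the order of the GRCh38.p14 gene table did not share its rise. On one side, RPRD1B (6.82 to 8.09), TTI1 (6.95 to 7.85) and VSTM2L (4.15 to 4.62) had no called trend. On the other side, KIAA1755 stayed at 3.45 to 4.10 through 48 h and read 5.65 at 72 h in 1 of its 3 tested probe sets, with no call (limma adjusted p = 0.0587). LBP, the lipopolysaccharide-binding protein, read 4.05 to 4.52. The noncoding RNA gene SNHG17 fell from 10.59 to 8.76 (slope -0.32 ± 0.07, limma adjusted p = 0.0196), a call that is lost without the untreated or the 72 h array. Genes between these with no probe set of 1 gene, the granule gene BPI among them, were not analysed here.

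Markers of the cells' own lineage changed too, though not all in step with TGM2. By 1 probe set a gene, all 7 neutrophil markers rose (8.02% of all genes), 5 of them without the 72 h array and 5 with the bioC covariate. At 24 h 5 of the 7 were 2-fold or more higher (3.35% of all genes), and at 48 h all 7 (5.83%). FPR1 went from 3.94 in untreated cells to 3.70 at 24 h, and S100A12 from 2.84 to 3.34. At 72 h these 2 read 7.11 and 10.29. The 2 tested probe sets of ITGAM differed by -0.12 and 4.07 at 72 h. The summed signal of the 7 neutrophil markers went from 7.82 to 14.20 on the log2 scale. At 72 h most of it came from S100A8 (13.13) and S100A9 (12.61). Of 5 promyelocyte markers, MPO and CTSG fell, AZU1 and PRTN3 had no call, and ELANE, a defining gene of this stage, stayed at 2.85 to 3.32, below the filter. The summed promyelocyte signal went from 13.31 to 12.18.

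TGM2 is also a gene of macrophages, endothelium and fibroblasts, so markers of these cells were read on the same arrays. Of 8 monocyte and macrophage markers with a probe set, CD14, MRC1, MSR1, C1QA and C1QB stayed below the filter on all 6 arrays, and none of the other 3 was called (1 was without the 48 h array). The summed signal of all 8 was 6.03 to 6.34 up to 48 h and 8.46 at 72 h, when 1 gene, VSIG4, made up most of it. The macrophage receptor VSIG4 read 3.13 to 3.77 up to 48 h and 8.07 at 72 h, and CD163 3.35 to 3.70 and then 4.89. The part of these markers in the TGM2 values was not tested. None of the 5 tested endothelial and fibroblast markers was called (summed signal 6.87 to 7.03), nor any of the 5 erythroid and megakaryocyte markers (6.69 to 6.92). VWF, CDH5, COL3A1 and LUM stayed below the filter.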

How the data were processed

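Total RNA of NB4 cells was measured on 6 arrays, 1 per time, grouped by the time in the labels. The authors' deposited table holds 1 log2 summary per probe set, made with RMA per the submitters' processing notes. Its version is not given in the sources used here, nor is a build. Because RMA equalises the arrays' distributions, a change of most transcripts together would not show. The number of arrays limits the precision.

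Of 54675 probe sets, 41097 had 1 gene, 1801 several and 11777 none. Control probe sets (62) were left out, which left 41091, and 41037 symbols were updated by Entrez identifier to the GRCh38.p14 gene table. No coordinates are given, since no build is named. Probe sets with a highest value of 3.66 or more were tested (25189, or 13594 genes by the probe set with the highest mean). Slopes over time order (0 to 5) came from limma 3.58.1 (R 4.3.3), with lmFit and then eBayes with trend = TRUE. A call needs p under 0.05 after Benjamini-Hochberg adjustment across all probe sets tested. With no replicates, differences between single arrays have no p-value and are called at 2-fold. Data were also simulated for 25189 probe sets. On these the fit called 25 of 50 slopes of 0.3, 46 of 50 of 0.6, and all 50 of 1 and of 2, with 7 false calls. A slope as small as that of 216183_at (0.24) can thus be missed. The simulated noise was drawn apart for each probe set and array, with no shift shared within an array. False calls that come from such shared shifts were thus not measured.

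TGM2, the lists and the tests were chosen with earlier results of these data known. Genes were named by a fixed rule: every family member, the 5 genes of a list that differed most at 72 h and those that spell out small counts, the 8 genes nearest to TGM2, and 3 measured genes on each side of it. List members outside this rule, such as FN1, ITGB3, TXN, RB1, AXL and RARB, were picked after their values were seen.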

Additional observations from a re-analysis of the deposited data

How the results depend on the processing

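The slopes of 201042_at, 211003_x_at and 211573_x_at kept their direction and call under all 13 alternatives. These were cyclic loess, 2 shifts to equal hybridisation controls, hours as regressor, the bioC level as a covariate, no filter, a filter at the upper quartile, and each array left out. The shift on all controls equalised their median and the shift without bioC the mean of the rest, so the 2 differ in more than bioC. The slope of 216183_at was called only with the shift on all controls (0.39, limma adjusted p = 0.034), and it could not be tested at the upper quartile. A difference counts as kept here when it stays on its side of 2-fold. With the shift without bioC, the 4 h differences were 0.92 (201042_at), 0.63 (211003_x_at) and 0.84 (211573_x_at), and 216183_at was at 0.86 at 48 h. The mean of all 4 probe sets gave 0.81 at 4 h. With the shift on all controls, 216183_at was at 1.76 at 24 h and 1.21 at 72 h, and with the mean of the untreated and 4 h arrays as baseline at 1.12 at 24 h. All other TGM2 differences from 12 to 72 h kept their side. The steps between times kept their direction under cyclic loess. The 72 h difference of 216183_at ranged from -0.02 to 1.21.

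Of all probe sets, 1881 rose and 2439 fell. The rising count was 1220 with the shift without bioC and 1128 with the bioC covariate, and 596 to 1769 with 1 array left out. The falling count was 70 with the shift on all controls, 5683 with the shift without bioC, and 357 to 2186 with 1 array left out. Both lowest counts came without the 72 h array. Without the untreated array 740 fell. In the transglutaminase family the rising count was 0 with the bioC covariate, and 0 to 1 with 1 array left out. With hours as regressor it was 1, but TGM1 (limma adjusted p = 0.0471) in place of TGM3 (0.0567). The family members 2-fold higher at 72 h were 1 with the shift without bioC and 1 at 4-fold or more. Counts of the other lists stayed within 1.5 times in 509 of 598 alternatives. With the shift on all controls at most 1 gene of any list was called falling. The cause of these changes was not tested. Of the 8 genes nearest to TGM2, 2 were among the 8 by Pearson correlation. No paired analysis was possible because each group has 1 array.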
